A study of Homo sapiens with 12 samples.

Results

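The genes described here are the Wnt ligands, their Frizzled receptors and the secreted antagonists of the SFRP and Dickkopf (DKK) families, in Calu-6 lung cancer cells. Members were taken by symbol: WNT followed by a number and, where present, A or B, FZD followed by a number, SFRP1 to SFRP5, and DKK1 to DKK4. A gene counted only where an array feature (a set of probes summarised into 1 value) carried that symbol alone, and where several did, the one with the highest average signal stood for the gene. This gave 37 genes of the 18417 with such a feature, namely 19 WNT genes, 10 FZD genes, 4 SFRP genes and 4 DKK genes. FRZB, the gene also called SFRP3, did not match the rule by its symbol and is counted below among other secreted regulators.

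Wnt proteins are secreted, lipid-modified ligands that bind the cysteine-rich domain of Frizzled receptors. With the co-receptors LRP5 and LRP6 they keep β-catenin from being degraded, so that it enters the nucleus and acts with TCF and LEF factors, whereas with receptors such as ROR2 some of them act on the cytoskeleton and cell movement without β-catenin. SFRP proteins carry a Frizzled-like domain and bind ligands outside the cell, and DKK1 blocks LRP5 and LRP6. In the lung this signalling shapes the growth of the airways and alveoli before birth and takes part in repair and in carcinomas.

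Calu-6, an established human lung carcinoma line, was transfected with a pool of siRNAs against LAPTM4B (siLAPTM4B), which encodes a membrane protein of lysosomes and endosomes, or with a scrambled pool (siControl). A day later the medium was exchanged for one with 0% or 10% fetal bovine serum (FBS), and RNA was taken 48 h after that, 72 h after transfection. The 4 groups were siLAPTM4B without serum, siControl without serum, siLAPTM4B with 10% FBS and siControl with 10% FBS, each with 3 biological replicates on 1 Affymetrix Human Gene 1.0 ST array apiece. All arrays come from 1 cell line and 1 siRNA pool per target, and every group went through transfection. Values are log2 RMA signals, so a difference of 1 is a 2-fold change.

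LAPTM4B itself fell by 1.42 ± 0.046 (SE) in siLAPTM4B cells compared with siControl cells without serum, at 0.373 of the linear signal, and fell by 1.75 ± 0.044 with 10% FBS, at 0.297 (limma, adjusted p = 8.6e-06 and 6.4e-07). The drop was smaller without serum (difference 0.33, limma adjusted p = 0.035). Array medians lay between 7.71 and 7.759, and each array correlated with those of its own group at 0.9978 to 0.9985 on average. As a measure of dim signal, 360 features of olfactory receptor genes, which most cells outside the nose do not use, had a median of 5.75 and a 95th percentile of 6.86. Of 7 epithelial markers 6 lay above that percentile, led by KRT8 at 12.9, while CDH1 was at 6.21, and VIM of the mesenchymal state was at 13.2. The 5 lung lineage markers all lay close above it, between 7.0 and 7.30, and the leukocyte marker PTPRC was at 5.25.

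Of the 37 members, 30 had a mean above 6.86 and 7 (WNT8A, WNT8B, WNT2, SFRP2, SFRP4, DKK4 and DKK2) lay below it. All 10 Frizzled receptors were above, with means between 7.66 and 10.96, as were 16 of the 19 ligands, whose highest mean was that of WNT9A at 9.0. Among antagonists, DKK1 had a mean of 12.31 and DKK3 lay above the line as well, whereas SFRP4 had the lowest mean of all members at 5.63. Signals of different features depend on their probes, so these values place each gene against the dim features and do not rank the genes by transcript number. A mean above the line is not read as proof of expression, since the lung lineage markers lay close above it as well. WNT5A was above it by its mean of 7.01 over the 12 arrays, although its serum-free arrays all lay below.

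**Figure D1:**
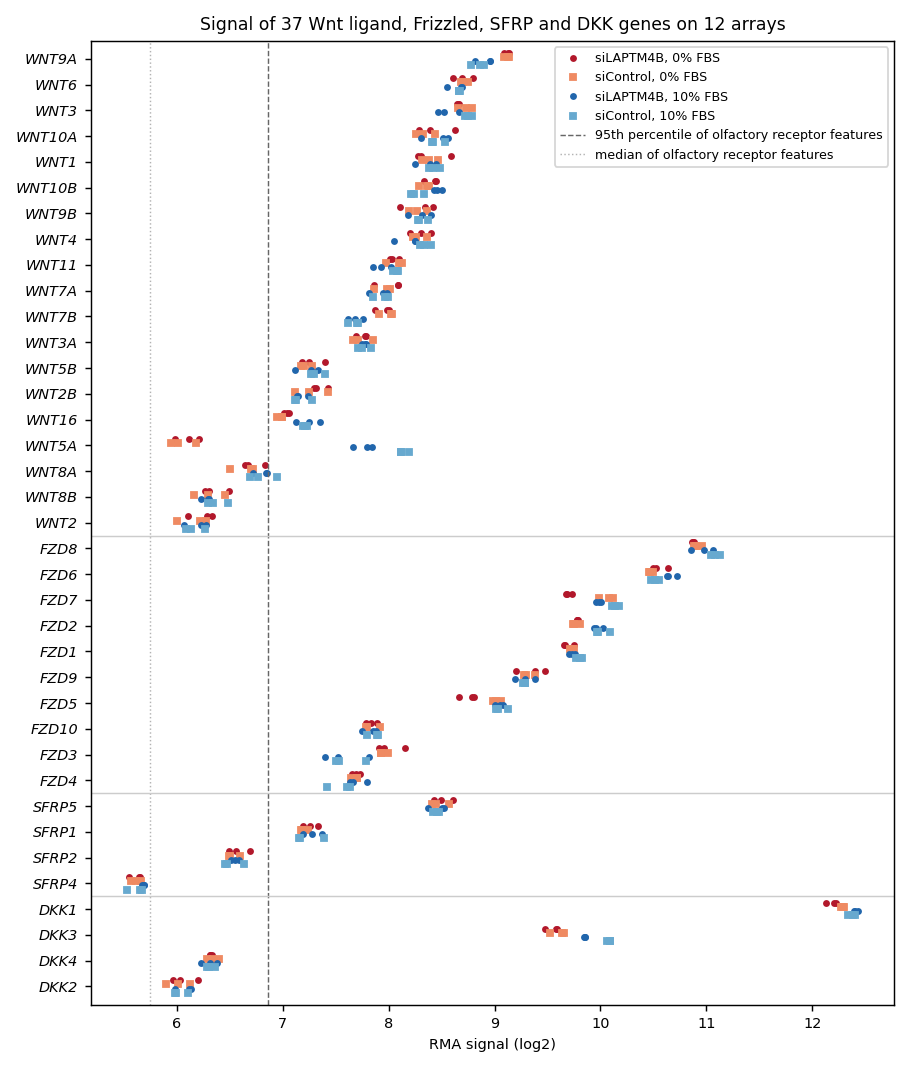
RMA signal (log2, x axis) of each of the 37 members on each of the 12 arrays, with siLAPTM4B as circles, siControl as squares, 0% FBS in red and orange and 10% FBS in blue. The dashed line is the 95th percentile of the olfactory receptor features at 6.86 and the dotted line their median at 5.75. WNT5A is the member whose arrays spread widest, by 2.25.

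Most members hardly moved across the study. The range over the 12 arrays had a median of 0.31 over members, and 3 members exceeded 0.5: WNT5A with 2.25, FZD3 with 0.76 and DKK3 with 0.61. In all, 11 members passed the test in at least 1 comparison and 26 in none. The 11 were the ligands WNT5A, WNT9A, WNT7B and WNT16, the receptors FZD8, FZD7, FZD2, FZD5 and FZD3, and the antagonists DKK1 and DKK3. No SFRP gene passed in any comparison.

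**Figure D2:**
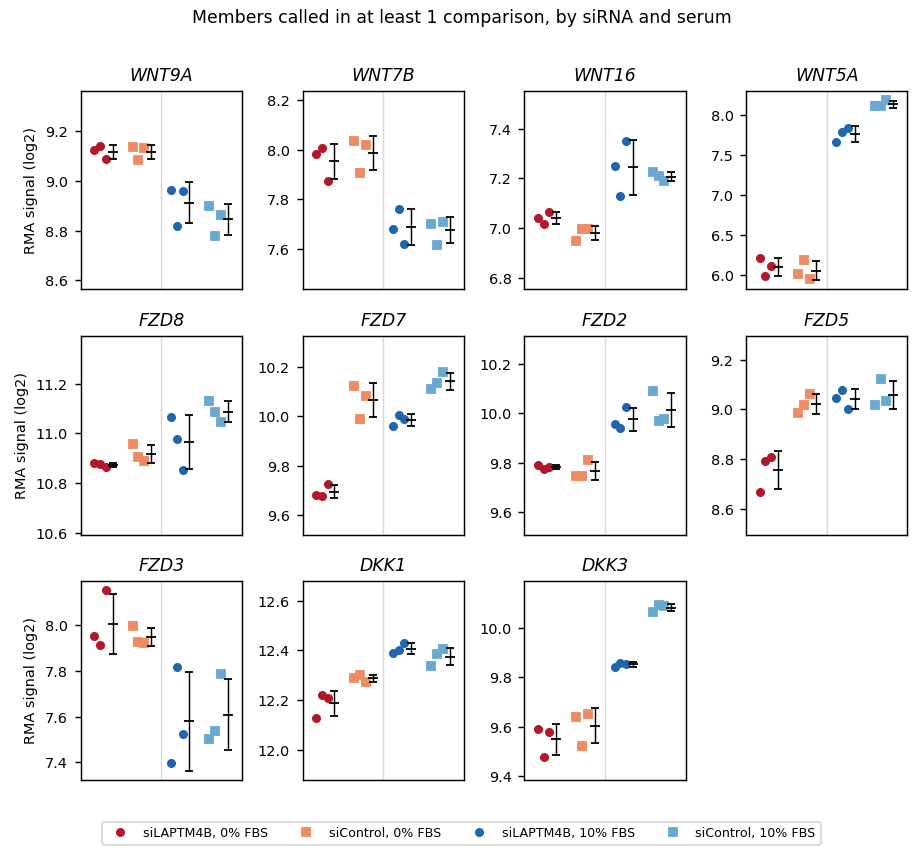
RMA signal (log2, y axis, each panel on its own scale) of the 11 members that passed the test in at least 1 comparison. Each point is 1 array, black bars are the mean and SD of the 3 arrays, and the grey line separates 0% FBS (left) from 10% FBS (right). WNT5A and DKK3 were low without serum under both siRNAs, and FZD7 and FZD5 were lowest in siLAPTM4B cells without serum.

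Knockdown of LAPTM4B changed few of these genes. Without serum FZD7 and FZD5 were lower in siLAPTM4B cells than in siControl cells and no member was higher, so that 5.41% of members were called against 2.33% of all 19460 features tested (limma, adjusted p under 0.05). With 10% FBS WNT5A and DKK3 were lower and no member was higher, again 5.41% of members, against 4.08% of all features. Of all features, 1.74% were lower without serum, and with 10% FBS 1.99% were higher and 2.09% lower. A count of 2 in 37 is close to both backgrounds. At an unadjusted p under 0.01, the threshold of the study's methods, 2 members passed without serum (6.63% of all features) and 5 with 10% FBS (8.09%), where WNT10B, WNT3 and FZD7 joined the others. No member was called in both media. The median log2 change over the members was 0.018 without serum and -0.0082 with 10% FBS, beside 0.0068 and 0.0043 over all features. The 95% intervals of the 35 members not called lay within -0.20 and 0.29 without serum and within -0.34 and 0.32 with 10% FBS. Arrays of the groups did not overlap for 5 members without serum (13.5%, against 21.3% of all features) and for 9 with 10% FBS (24.3%, against 24.5%), and an exact permutation test of 3 arrays against 3 cannot give a two-sided p below 0.1.

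**Figure D3:**
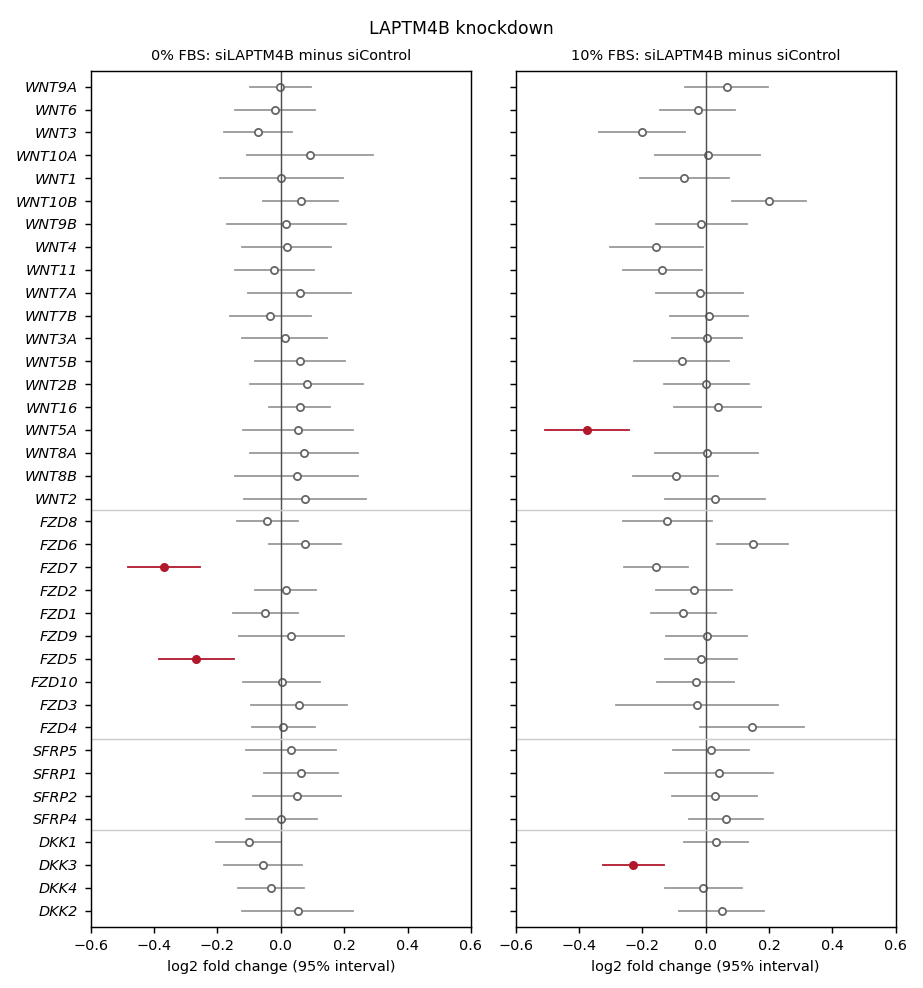
Log2 fold change of each of the 37 members (x axis, siLAPTM4B minus siControl, 3 arrays each) without serum on the left and with 10% FBS on the right. Lines are 95% intervals from limma and filled red points are members with an adjusted p under 0.05, namely FZD7 and FZD5 on the left and WNT5A and DKK3 on the right, all below 0.

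Serum withdrawal changed more members. In siLAPTM4B cells 3 members rose and 7 fell without serum compared with 10% FBS, 27% of the 37, while 20.7% of all features were called (limma, adjusted p under 0.05). In siControl cells 3 rose and 5 fell, 21.6% of members against 26% of all features. Of all features, 9.74% rose and 11% fell in siLAPTM4B cells, and 13.2% rose and 12.9% fell in siControl cells. At an unadjusted p under 0.01 the members' counts were 10 and 8, beside 20.4% and 24.4% of all features. These shares were near those of all features. The median log2 change over members was -0.0083 in siLAPTM4B cells and -0.029 in siControl cells, beside -0.0058 and -0.015 over all features. The 7 members called under both siRNAs were WNT5A, WNT9A, WNT7B, WNT16, FZD2, FZD3 and DKK3, while FZD7, FZD5 and DKK1 were called in siLAPTM4B cells alone and FZD8 in siControl cells alone. Groups did not overlap for 12 members under each siRNA (32.4%, against 36% of all features in siLAPTM4B cells and 41.1% in siControl cells).

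**Figure D4:**
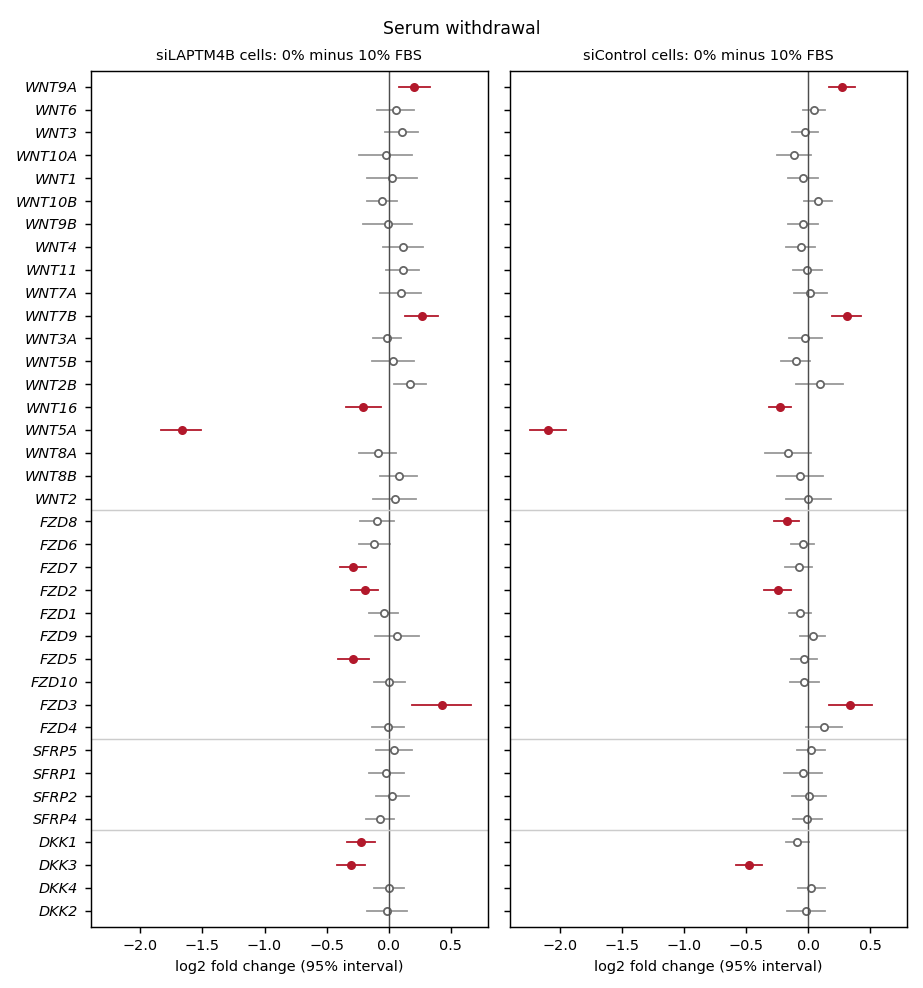
Log2 fold change of each of the 37 members (x axis, 0% minus 10% FBS, 3 arrays each) in siLAPTM4B cells on the left and in siControl cells on the right. Lines are 95% intervals from limma and filled red points are members with an adjusted p under 0.05. WNT5A lies at -1.67 and -2.10, far beyond the other members, whose changes lie between -0.48 and 0.43.

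Whether the knockdown effect differed between media was tested on all 12 arrays. No member passed after adjustment over all features in limma, where 0.262% of features did, while 3 had an unadjusted p under 0.01 (3.5% of all features) and 5 an unadjusted p under 0.05. These were WNT5A with a difference of 0.43 ± 0.10 (SE, adjusted p = 0.12), FZD5 with -0.25 ± 0.069 (0.19), FZD7 with -0.21 ± 0.061 (0.21), DKK3 with 0.17 ± 0.065 (0.35) and DKK1 with -0.13 ± 0.056 (0.41). The same test asks whether serum withdrawal acted differently under the siRNAs, so a call in only 1 medium or under only 1 siRNA was not shown to be particular to it. LAPTM4B itself was lowered less without serum, as given above, and its part in these differences was not tested.

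Among the ligands, WNT5A had the greatest change, and it is best known for signalling through ROR2 without β-catenin. Its log2 signal was 6.21, 5.98 and 6.11 in siLAPTM4B cells and 6.01, 6.18 and 5.95 in siControl cells without serum, and 7.66, 7.79 and 7.85 in siLAPTM4B cells and 8.12, 8.11 and 8.19 in siControl cells with 10% FBS. Every array without serum was far below every array with 10% FBS, and with 10% FBS every siLAPTM4B array was below every siControl array. With serum withdrawal its measured signal fell by 1.67 ± 0.071 in siLAPTM4B cells and fell by 2.10 ± 0.063 in siControl cells (SE, limma, adjusted p = 4.9e-07 and 4.3e-07). These calls held in all 16 alternatives run for each siRNA. With 10% FBS and knockdown it fell by 0.38 ± 0.058, at 0.771 of the linear signal (SE, limma, adjusted p = 0.012, and 0.053 when adjusted over all features with or without a symbol). Without serum the difference between siRNAs was 0.05 ± 0.076 (SE, 95% interval -0.12 to 0.23). Its signal there, 6.10 ± 0.11 in siLAPTM4B cells and 6.05 ± 0.12 in siControl cells (SD, n = 3 each), lay under the 95th percentile of the olfactory receptor features (6.86), above their median (5.75) and near the lower quartile of the arrays (6.14 to 6.19). The falls with serum withdrawal, measured against this dim signal, are therefore given as lower bounds, and their sizes under the 2 siRNAs are not read against each other. Whether the dim signal had a part in the small difference between siRNAs without serum was not tested.

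Some markers of other cell types also moved with serum. Of 7 fibroblast markers, a cell type in which WNT5A is often found, LUM and PDGFRB fell and PDGFRA rose under both siRNAs, and the other 4 (COL1A1, COL1A2, COL3A1 and DCN) did not pass. LUM fell by 1.85 in siLAPTM4B cells and fell by 1.87 in siControl cells, and PDGFRB fell by 1.23 in siLAPTM4B cells and fell by 1.19 in siControl cells, while PDGFRA rose by 0.48 in siLAPTM4B cells and 0.40 in siControl cells (limma, adjusted p between 4.5e-07 and 0.0019). Of the 7, 6 were above the dim line, and DCN, a defining one, lay below it at 5.25. The mean of the list per array was 7.38 to 7.46 in siLAPTM4B cells without serum, against 7.78 to 7.83 in siLAPTM4B cells with 10% FBS, and 7.49 to 7.53 in siControl cells without serum, against 7.86 to 7.94 in siControl cells with 10% FBS. Within each medium it was lower on the siLAPTM4B arrays than on the siControl arrays, where again LUM and PDGFRB were the members that passed.

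Of 5 leukocyte markers CD14 and CD68 fell under both siRNAs and PTPRC, CD3E and ITGAM did not pass, with PTPRC at 5.25 and CD3E at 6.74 below the dim line. Their mean was 7.24 to 7.32 in siLAPTM4B cells without serum, against 7.39 to 7.48 in siLAPTM4B cells with 10% FBS, and 7.19 to 7.23 in siControl cells without serum, against 7.35 to 7.44 in siControl cells with 10% FBS. Of 7 epithelial markers KRT7 fell and EPCAM rose under both siRNAs, and their mean was 9.33 to 9.37 in siLAPTM4B cells without serum, against 9.43 to 9.50 in siLAPTM4B cells with 10% FBS, and 9.32 to 9.36 in siControl cells without serum, against 9.36 to 9.39 in siControl cells with 10% FBS. The part of these markers in the WNT5A result was not tested. All samples are of the Calu-6 line, so these genes do not stand for numbers of fibroblasts or leukocytes. Bulk arrays cannot tell a change in every cell from a change in the share of cells that express a gene.

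The sequence just upstream of WNT5A is shown because the gene moved most, and RefSeq annotates 2 start sites for it that the single array feature cannot separate. They lie 5908 bases apart on the minus strand of chromosome 3 (GRCh38.p14), and the 250 bases before each are chr3:55487307-55487556 and chr3:55481399-55481648. Capitals mark matches, on either strand, to GGGCGG, which Sp and KLF factors bind, to TATAAA, the element found shortly before many start sites, to CTTTGA, the core that TCF and LEF factors bind, to TGANTCA, which AP-1 factors bind, or to the CArG box of serum response factor. Matches may overlap.
WNT5A start site 1: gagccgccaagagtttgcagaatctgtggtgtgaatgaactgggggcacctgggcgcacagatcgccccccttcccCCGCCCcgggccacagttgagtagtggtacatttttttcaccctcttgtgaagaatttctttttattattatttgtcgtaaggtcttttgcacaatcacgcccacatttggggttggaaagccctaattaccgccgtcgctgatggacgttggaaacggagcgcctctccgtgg
WNT5A start site 2: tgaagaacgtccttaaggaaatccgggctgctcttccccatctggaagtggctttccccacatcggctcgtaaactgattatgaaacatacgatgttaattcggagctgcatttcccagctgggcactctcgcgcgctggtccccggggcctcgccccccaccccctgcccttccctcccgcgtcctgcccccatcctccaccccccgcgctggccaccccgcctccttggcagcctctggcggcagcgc
The first window held 1 match to GGGCGG and the second none of the 5 motifs. Of the members, 25 matched an entry of the RefSeq table, with 28 start sites, and 23 of these windows (82.1%) held GGGCGG, against 42.6% of all 35116 windows of the table. Their median GC content was 70.6%, against 58.0% in the table. TATAAA was in 3 (10.7%, the same share as in the table), CTTTGA in 1 (3.57%, against 11.2%), and TGANTCA and the CArG box in 0, against 6.57% and 1.16% of the table. A match is a run of letters and no shown site. SFRP1, WNT10B, DKK2, WNT11, FZD10, DKK4, FZD6, DKK3, WNT7B, FZD7, FZD2 and FZD3 had no entry.

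The other ligands that passed moved by much less, and only with serum. WNT9A, known from joint formation in mice, had a log2 signal of 9.12, 9.14 and 9.09 in siLAPTM4B cells and 9.14, 9.09 and 9.13 in siControl cells without serum, and 8.96, 8.82 and 8.96 in siLAPTM4B cells and 8.90, 8.78 and 8.86 in siControl cells with 10% FBS. All serum-free arrays were above all arrays with 10% FBS, and the increase was 0.20 ± 0.056 in siLAPTM4B cells and 0.27 ± 0.046 in siControl cells (SE, limma, adjusted p = 0.029 and 0.0031). WNT7B, needed for lung growth in mice, had 7.98, 8.01 and 7.87 in siLAPTM4B cells and 8.04, 7.91 and 8.02 in siControl cells without serum, and 7.68, 7.76 and 7.62 in siLAPTM4B cells and 7.70, 7.62 and 7.71 in siControl cells with 10% FBS. It rose without serum by 0.27 ± 0.059 in siLAPTM4B cells and 0.31 ± 0.051 in siControl cells (SE, limma, adjusted p = 0.011 and 0.0027), also with no overlap. WNT16, known for its effect on cortical bone, had 7.04, 7.02 and 7.06 in siLAPTM4B cells and 6.95, 6.99 and 7.0 in siControl cells without serum, and 7.25, 7.13 and 7.35 in siLAPTM4B cells and 7.23, 7.21 and 7.19 in siControl cells with 10% FBS. Without serum it fell by 0.20 ± 0.062 in siLAPTM4B cells and fell by 0.23 ± 0.039 in siControl cells (SE, limma, adjusted p = 0.045 and 0.0034), and the groups were again apart. Its serum-free means, 7.04 in siLAPTM4B cells and 6.98 in siControl cells, lay close above the dim line at 6.86.

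In siLAPTM4B cells each of these 3 calls could be lost with an array left out, while the direction was kept. Leaving out an array also lowers the precision, so a loss does not single out that array. Without replicate 2 of the serum-free siLAPTM4B arrays the limma adjusted p was 0.11 for WNT9A, 0.054 for WNT7B and 0.14 for WNT16. Without replicate 1 of that group it was 0.064 for WNT9A and 0.088 for WNT16, and without replicate 3 it was 0.054 and 0.081. Of the siLAPTM4B arrays with 10% FBS, leaving out replicate 2 gave 0.083 for WNT9A, and leaving out replicate 1 or 3 gave 0.10 or 0.15 for WNT16. With p adjusted over all features, with or without a symbol, it was 0.066 for WNT9A and 0.10 for WNT16 in siLAPTM4B cells. In siControl cells the 3 calls held with any array left out. No other ligand passed in any comparison as fitted here. Closest were WNT2B, with a difference of 0.17 ± 0.057 between media in siLAPTM4B cells (0% minus 10% FBS, SE, limma, adjusted p = 0.060), and WNT10B, with one of 0.20 ± 0.051 between siRNAs with 10% FBS (siLAPTM4B minus siControl, SE, limma, adjusted p = 0.071). With dim features left out both passed (adjusted p = 0.041 for WNT2B and 0.046 for WNT10B), and with all 12 arrays fitted together WNT10B (0.029) and WNT3 (0.039, at a difference of -0.20) passed for knockdown with 10% FBS.

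Among the receptors, FZD7 and FZD5 were lowest where both siLAPTM4B and serum-free medium were applied. FZD7, a receptor often high in stem cells and carcinomas, had a log2 signal of 9.68, 9.68 and 9.73 in siLAPTM4B cells and 10.12, 9.99 and 10.08 in siControl cells without serum, and 9.96, 10.01 and 9.99 in siLAPTM4B cells and 10.11, 10.13 and 10.18 in siControl cells with 10% FBS. The serum-free siLAPTM4B arrays were below the arrays of each other group, and with 10% FBS the siLAPTM4B arrays were also below the siControl arrays. With knockdown it fell by 0.37 ± 0.049 without serum, at 0.775 of the linear signal (SE, limma, adjusted p = 0.0090). The difference with 10% FBS was -0.16 ± 0.045 (SE, limma, adjusted p = 0.10), which passed when all 12 arrays were fitted together (0.048) and with an intensity trend in the variance (0.038). With serum withdrawal it fell by 0.29 ± 0.047 in siLAPTM4B cells (SE, limma, adjusted p = 0.0021), whereas the difference in siControl cells was -0.08 ± 0.048 (adjusted p = 0.31). The knockdown and serum calls both rest on the serum-free siLAPTM4B arrays. The knockdown call without serum was lost without replicate 2 of the siLAPTM4B arrays, at an adjusted p of 0.056.

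FZD5, a β-catenin pathway receptor needed for the maturation of intestinal Paneth cells in mice, had a log2 signal of 8.67, 8.79 and 8.81 in siLAPTM4B cells and 8.98, 9.02 and 9.06 in siControl cells without serum, and 9.05, 9.08 and 9.0 in siLAPTM4B cells and 9.02, 9.12 and 9.03 in siControl cells with 10% FBS. The serum-free siLAPTM4B arrays were the lowest, and the other groups overlapped or lay close together. With knockdown it fell by 0.27 ± 0.052 without serum, at 0.831 of the linear signal (SE, limma, adjusted p = 0.040), and the difference with 10% FBS was -0.02 ± 0.050 (adjusted p = 0.92). With serum withdrawal it fell by 0.29 ± 0.056 in siLAPTM4B cells (SE, limma, adjusted p = 0.0053), with a difference of -0.04 ± 0.046 in siControl cells (adjusted p = 0.64). Its knockdown call was lost whichever of the 6 arrays was left out, with adjusted p between 0.061 and 0.15, while the direction was kept.

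The window before the FZD5 start is shown as that of a receptor called for knockdown, with the same marks. It spans chr2:207769907-207770156 on the minus strand (GRCh38.p14).
FZD5: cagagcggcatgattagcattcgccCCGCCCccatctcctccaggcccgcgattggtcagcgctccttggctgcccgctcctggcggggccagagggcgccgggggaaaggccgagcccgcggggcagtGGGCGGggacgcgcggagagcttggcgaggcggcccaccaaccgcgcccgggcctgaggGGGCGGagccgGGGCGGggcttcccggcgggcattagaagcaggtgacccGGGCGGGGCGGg
It held 6 matches to GGGCGG, some of them overlapping, and none of the other motifs, at a GC content of 76.8%.

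FZD2, FZD3 and FZD8 passed for serum alone. FZD2, which can act as a receptor for WNT5A, had a log2 signal of 9.79, 9.78 and 9.78 in siLAPTM4B cells and 9.75, 9.75 and 9.81 in siControl cells without serum, and 9.96, 9.94 and 10.03 in siLAPTM4B cells and 10.09, 9.97 and 9.98 in siControl cells with 10% FBS. Without serum it fell by 0.19 ± 0.048 in siLAPTM4B cells and fell by 0.24 ± 0.048 in siControl cells (SE, limma, adjusted p = 0.020 and 0.0067), and all serum-free arrays lay below the arrays with 10% FBS. FZD3, a receptor of planar polarity and axon guidance in mice, had 7.95, 7.91 and 8.15 in siLAPTM4B cells and 8.0, 7.93 and 7.92 in siControl cells without serum, and 7.40, 7.82 and 7.52 in siLAPTM4B cells and 7.50, 7.54 and 7.79 in siControl cells with 10% FBS. It rose without serum by 0.43 ± 0.11 in siLAPTM4B cells and 0.34 ± 0.075 in siControl cells (SE, limma, adjusted p = 0.018 and 0.011), and with 10% FBS its replicates spread widely, by SDs of 0.22 and 0.16. FZD8, whose cysteine-rich domain is often used as a trap for Wnt ligands, had 10.88, 10.88 and 10.86 in siLAPTM4B cells and 10.96, 10.90 and 10.89 in siControl cells without serum, and 11.07, 10.98 and 10.85 in siLAPTM4B cells and 11.13, 11.09 and 11.04 in siControl cells with 10% FBS. In siControl cells it fell by 0.17 ± 0.043 (SE, limma, adjusted p = 0.020), and the siLAPTM4B arrays overlapped between media, with a difference of -0.09 ± 0.061 (adjusted p = 0.36).

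Several of these calls were also lost with an array left out, while the direction was kept. In siLAPTM4B cells FZD2 had a limma adjusted p of 0.080 or 0.061 without replicate 2 or 3 of the serum-free arrays and of 0.079 without replicate 3 of the arrays with 10% FBS. FZD3 had 0.054 without replicate 3 of the serum-free siLAPTM4B arrays, and 0.067 or 0.065 without replicate 1 or 3 of those with 10% FBS, and 0.065 with p adjusted over all features. FZD8 in siControl cells had 0.071 or 0.072 without replicate 2 or 3 of the serum-free arrays and 0.059 or 0.067 without replicate 1 or 2 of those with 10% FBS. The other 5 Frizzled genes (FZD1, FZD4, FZD6, FZD9 and FZD10) were called in no comparison as fitted here, and with an intensity trend and robust variance FZD6 passed for knockdown with 10% FBS (difference 0.15, limma adjusted p = 0.042).

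Of the antagonists, both DKK genes above the dim line passed. DKK3, a divergent Dickkopf that does not block LRP6 as DKK1 does, had a log2 signal of 9.59, 9.48 and 9.58 in siLAPTM4B cells and 9.64, 9.52 and 9.65 in siControl cells without serum, and 9.84, 9.86 and 9.85 in siLAPTM4B cells and 10.06, 10.09 and 10.09 in siControl cells with 10% FBS. The serum-free arrays were below those with 10% FBS under both siRNAs, and with 10% FBS the siLAPTM4B arrays were below the siControl arrays, with very close replicates. With serum withdrawal it fell by 0.30 ± 0.051 in siLAPTM4B cells and fell by 0.48 ± 0.047 in siControl cells (SE, limma, adjusted p = 0.0025 and 0.00017). With knockdown it fell by 0.23 ± 0.042 with 10% FBS, at 0.853 of the linear signal (SE, limma, adjusted p = 0.023), and the difference without serum was -0.06 ± 0.054 (adjusted p = 0.72). That knockdown call was lost whichever of the 6 arrays was left out, with adjusted p between 0.055 and 0.12. It was also lost, at 0.59, when the gene's second feature was averaged in, a dim one with a mean of 5.92 and a difference of 0.11 ± 0.061 for the same comparison (SE, limma, adjusted p = 0.40). For serum withdrawal that feature differed by -0.33 ± 0.071 in siLAPTM4B cells and -0.08 ± 0.082 in siControl cells (SE, limma, adjusted p = 0.0087 and 0.58). Both serum calls of DKK3 held in all 16 alternatives, the averaging included, with -0.275 as the smallest change in siControl cells.

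DKK1, the antagonist of LRP5 and LRP6 and itself a target of β-catenin, had a log2 signal of 12.13, 12.22 and 12.21 in siLAPTM4B cells and 12.29, 12.30 and 12.27 in siControl cells without serum, and 12.39, 12.40 and 12.43 in siLAPTM4B cells and 12.34, 12.38 and 12.40 in siControl cells with 10% FBS. The serum-free siLAPTM4B arrays were the lowest and did not overlap with those of any other group. Without serum it fell by 0.22 ± 0.050 in siLAPTM4B cells (SE, limma, adjusted p = 0.012), a call that held in all 16 alternatives. The difference in siControl cells was -0.09 ± 0.040 (adjusted p = 0.15). Between siRNAs without serum the difference was -0.10 ± 0.045 (SE, 95% interval -0.20 to 0.00044, limma, adjusted p = 0.33), and with 10% FBS it was 0.03 ± 0.045 (adjusted p = 0.78).

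The window before the DKK1 start is shown because it alone among the members' windows held CTTTGA, the searched form of the TCF and LEF core. It spans chr10:52314031-52314280 on the plus strand (GRCh38.p14), with capitals as before.
DKK1: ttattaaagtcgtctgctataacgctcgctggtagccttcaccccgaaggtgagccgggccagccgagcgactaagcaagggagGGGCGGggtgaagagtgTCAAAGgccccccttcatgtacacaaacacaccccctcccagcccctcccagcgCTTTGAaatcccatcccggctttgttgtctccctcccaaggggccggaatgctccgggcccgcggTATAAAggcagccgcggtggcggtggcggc
It held 2 matches to CTTTGA, 1 to TATAAA and 1 to GGGCGG. The motif is short and was in 11.2% of all windows of the table.

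The SFRP genes were called nowhere. SFRP5, the SFRP gene with the highest signal, had 8.61, 8.43 and 8.49 in siLAPTM4B cells and 8.41, 8.57 and 8.45 in siControl cells without serum, and 8.53, 8.38 and 8.51 in siLAPTM4B cells and 8.46, 8.47 and 8.42 in siControl cells with 10% FBS. All groups overlapped, and its differences lay between 0.02 and 0.04 in the 4 comparisons of groups. SFRP4, a dim feature, had 5.55, 5.65 and 5.65 in siLAPTM4B cells and 5.57, 5.62 and 5.66 in siControl cells without serum, and 5.67, 5.69 and 5.70 in siLAPTM4B cells and 5.68, 5.65 and 5.53 in siControl cells with 10% FBS, and its difference was widest for serum withdrawal in siLAPTM4B cells, at -0.07 ± 0.050 (SE, limma, adjusted p = 0.42). Over the 4 SFRP genes the 95% intervals lay within -0.11 and 0.19 for knockdown without serum and within -0.13 and 0.21 with 10% FBS.

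Other genes of the pathway were counted from 5 lists of co-receptors, further secreted regulators, transducers, targets and planar polarity genes, 91 of them measured. Knockdown without serum raised 1 and lowered 1 (2.20% called, against 2.33% of all features), and with 10% FBS it raised 4 and lowered 5 (9.89%, against 4.08%). Serum withdrawal raised 12 and lowered 14 in siLAPTM4B cells (28.6%, against 20.7%) and raised 15 and lowered 22 in siControl cells (40.7%, against 26%). The lists were chosen with earlier results of these data known, and no test of a list was made. No gene of them passed for a difference of the knockdown effect between media.

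Of 16 co-receptors and kinase receptors, 4 rose and 3 fell without serum in siLAPTM4B cells, and 4 rose and 4 fell in siControl cells, with a median change of 0.0055 in siLAPTM4B cells and 0.053 in siControl cells. Of all features 20.7% were called in siLAPTM4B cells and 26% in siControl cells. ROR2, the kinase receptor through which WNT5A signals, had a log2 signal of 9.87, 9.99 and 9.98 in siLAPTM4B cells and 10.44, 10.35 and 10.43 in siControl cells without serum, and 9.01, 8.93 and 8.91 in siLAPTM4B cells and 9.23, 9.24 and 9.24 in siControl cells with 10% FBS. It was higher without serum under both siRNAs and lower in siLAPTM4B than in siControl cells in both media, with all groups apart. Serum withdrawal raised it by 1.00 ± 0.055 in siLAPTM4B cells and 1.17 ± 0.042 in siControl cells (SE, limma, adjusted p = 2.1e-06 and 7.8e-07). With knockdown it fell by 0.46 ± 0.051 without serum and fell by 0.29 ± 0.046 with 10% FBS (SE, limma, adjusted p = 0.0043 and 0.014). Its ligand WNT5A thus fell where it rose with serum withdrawal, and both were lower with knockdown in 10% FBS.

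ROR1, the related kinase receptor, had 8.76, 8.92 and 9.03 in siLAPTM4B cells and 8.63, 8.68 and 8.76 in siControl cells without serum, and 9.94, 9.88 and 9.79 in siLAPTM4B cells and 9.61, 9.55 and 9.50 in siControl cells with 10% FBS. Without serum it fell by 0.97 ± 0.073 in siLAPTM4B cells and fell by 0.87 ± 0.051 in siControl cells (SE, limma, adjusted p = 1.6e-05 and 9.9e-06), opposite to ROR2. With 10% FBS it was higher by 0.31 ± 0.055 in siLAPTM4B than in siControl cells (SE, limma, adjusted p = 0.019). LGR5, a receptor for R-spondins and a target of β-catenin in the intestine, had 9.88, 9.96 and 10.03 in siLAPTM4B cells and 10.19, 10.22 and 10.17 in siControl cells without serum, and 11.35, 11.38 and 11.34 in siLAPTM4B cells and 11.46, 11.51 and 11.53 in siControl cells with 10% FBS. Without serum it fell by 1.40 ± 0.054 in siLAPTM4B cells and fell by 1.30 ± 0.041 in siControl cells (SE, limma, adjusted p = 2.8e-07 and 4.6e-07). LGR4, also a receptor for R-spondins, was higher by 0.30 ± 0.057 in siLAPTM4B than in siControl cells with 10% FBS (SE, limma, adjusted p = 0.026). Serum withdrawal raised LGR4 by 0.21 ± 0.0485 in siLAPTM4B cells and 0.40 ± 0.053 in siControl cells (SE, limma, adjusted p = 0.014 and 0.00089), opposite to LGR5.

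**Figure D5:**
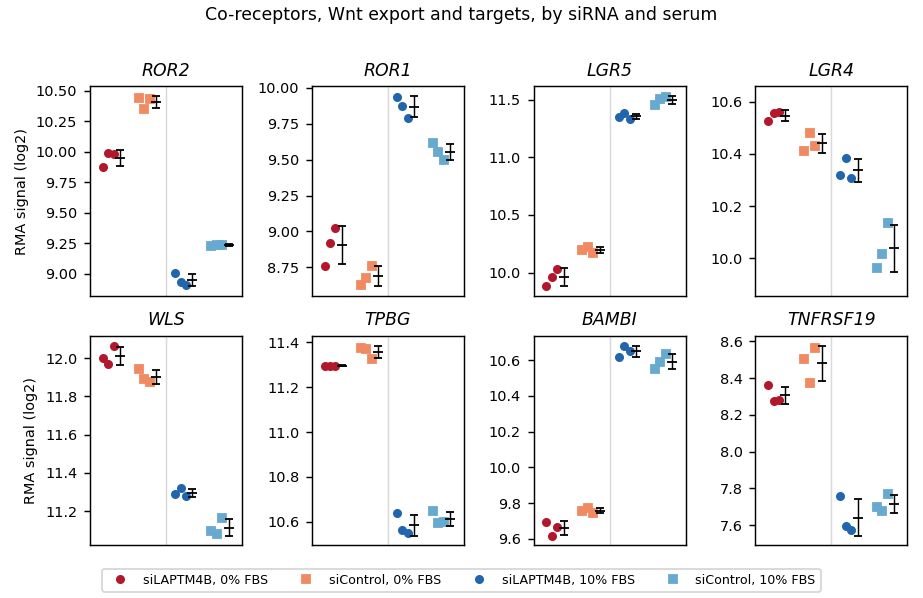
RMA signal (log2, y axis, each panel on its own scale) of 8 genes of the pathway outside the ligand, receptor and antagonist families. Each point is 1 array, black bars are the mean and SD of the 3 arrays, and the grey line separates 0% FBS (left) from 10% FBS (right). ROR2, LGR4, WLS, TPBG and TNFRSF19 were higher without serum, and ROR1, LGR5 and BAMBI lower.

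Of 19 other secreted regulators and genes of ligand processing, 4 rose and 1 fell without serum in siLAPTM4B cells, and 3 rose and 3 fell in siControl cells, with a median change of 0.012 in siLAPTM4B cells and -0.032 in siControl cells. Over all features 20.7% were called in siLAPTM4B cells and 26% in siControl cells, with median changes of -0.0058 and -0.015. WLS, the carrier that takes Wnt ligands to the cell surface, had 12.00, 11.97 and 12.06 in siLAPTM4B cells and 11.94, 11.89 and 11.88 in siControl cells without serum, and 11.29, 11.32 and 11.28 in siLAPTM4B cells and 11.10, 11.08 and 11.16 in siControl cells with 10% FBS. It rose without serum by 0.72 ± 0.049 in siLAPTM4B cells and 0.79 ± 0.043 in siControl cells (SE, limma, adjusted p = 8.6e-06 and 6.5e-06), opposite in direction to WNT5A. TPBG, a membrane inhibitor of the β-catenin branch, rose by 0.71 ± 0.049 in siLAPTM4B cells and 0.74 ± 0.040 in siControl cells, and the target TNFRSF19 rose by 0.66 ± 0.061 in siLAPTM4B cells and 0.76 ± 0.057 in siControl cells. The target BAMBI, a decoy receptor of TGF-β signalling, fell by 0.99 ± 0.049 in siLAPTM4B cells and fell by 0.83 ± 0.040 in siControl cells. TLE4, a co-repressor of TCF factors, fell by 0.66 ± 0.077 in siLAPTM4B cells and fell by 0.69 ± 0.046 in siControl cells, and PRICKLE1, of planar polarity, fell by 0.66 ± 0.064 in siLAPTM4B cells and fell by 0.26 ± 0.056 in siControl cells (SE, limma, adjusted p between 1.1e-06 and 0.0094 for these 5 genes).

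For knockdown, IGFBP4, which binds insulin-like growth factors and can block LRP6, rose by 0.33 ± 0.048 without serum and 0.28 ± 0.049 with 10% FBS in siLAPTM4B compared with siControl cells (SE, limma, adjusted p = 0.013 and 0.017). With 10% FBS the inhibitor APCDD1 fell by 0.45 ± 0.048, the repressor TCF7L1 by 0.33 ± 0.059 and PRICKLE2, of planar polarity, by 0.29 ± 0.063, while TNKS2, which promotes the loss of AXIN proteins, rose by 0.27 ± 0.060 (SE, limma, adjusted p between 0.0026 and 0.045). PRICKLE2 lay at the dim line of 6.86, with means of 6.80 in siLAPTM4B and 7.09 in siControl cells with 10% FBS, so its fall may be understated. Of these knockdown calls with 10% FBS, that of APCDD1 held with any array left out, and those of ROR1, ROR2, LGR4, IGFBP4, TCF7L1, PRICKLE2 and TNKS2 were each lost without replicate 2 of the siControl arrays, with adjusted p between 0.055 and 0.18. Each of the latter was also lost when some other array was left out instead. With p adjusted over all features, with or without a symbol, they were lost as well (limma, adjusted p between 0.051 and 0.13). Without serum the call of IGFBP4 was lost without replicate 2 of the siLAPTM4B arrays (adjusted p = 0.070) or replicate 2 or 3 of the siControl arrays (0.058 or 0.061), and that of ROR2 held with any array left out. That of IGFBP4 was also lost there with p adjusted over all features (limma, adjusted p = 0.06).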

How the data were processed

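Gene expression was measured on 12 arrays in 4 groups of 3 biological replicates. Per the labels and the study's methods, the authors made the deposited log2 values by RMA, which corrects background, equalizes the distributions of arrays and combines probes, in BRB-ArrayTools 4.3.0; the probe-level annotation version is not given in the sources used here. The number of arrays limits the precision, and a difference near the dim end may be understated. Symbols came from the platform annotation: of 33252 features 19460 had 1 symbol, 1754 several and 12038 none, and all 37 members kept their symbol through their Entrez ID.

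For each comparison its 6 arrays were fitted with limma 3.58.1 under R 4.3.3, sharing a single prior variance, over the 19460 features with 1 symbol, and called at a Benjamini-Hochberg adjusted p under 0.05. The difference of knockdown effects used all 12 arrays. The methods selected genes at an unadjusted p under 0.01, which is an alternative here. The scripts were tested on simulated data.

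Replicate numbers were not used as pairs. As a check, the departures of equally numbered arrays from their group means were compared, and they correlated at 0.37, 0.13 and 0.20 between media in siControl cells, so there the numbers may pair the arrays. For knockdown without serum the correlations were similar (0.39, 0.069 and 0.18), so the numbers may pair the arrays there as well. Signs were mixed for knockdown with 10% FBS (0.37, 0.15 and -0.079) and serum withdrawal in siLAPTM4B cells (0.32, 0.13 and -0.17). So few correlations per comparison cannot show whether the numbers pair the arrays or not. P-values measure the spread between these biological replicates of 1 cell line.

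Values per array are given for members called in a comparison and, in each family, for the member with the highest mean and the member with the largest change. Pathway genes are named where called, up to 8 per comparison by size of change. Other members are named where a count was 5 or fewer or where they lay closest to the threshold. The members and lists were chosen with earlier results of these data known. Promoters and gene positions come from RefSeq (GRCh38.p14). Protein sequences were not used here.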

Additional observations from a re-analysis of the deposited data

How the results depend on the processing

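Each comparison was recomputed under up to 10 further settings and with each array left out in turn. Over the 65 results for single genes, 933 of the recomputed values kept their direction and their side of the threshold, 104 kept the direction and lost the call, 15 gained a call and 3 turned.

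For knockdown without serum, where 2 members were called, 1 was called with p adjusted over all features and 0 with the methods' t-test after adjustment, and between 0 and 1 with an array left out. For knockdown with 10% FBS, also with 2, the count was 5 at an unadjusted p under 0.01, 0 with p adjusted over all features, 4 with an intensity trend and robust variance, 5 with all 12 arrays in 1 fit, 4 with the methods' t-test at an unadjusted p under 0.01 and 1 after adjustment, 1 with the rows of a gene averaged, and 1 with any array left out. For serum withdrawal in siLAPTM4B cells, with 10, it was 6 with the methods' t-test at either threshold, 7 with p adjusted over all features, where WNT9A, WNT16 and FZD3 lost their calls, and between 6 and 9 with an array left out, the lowest without replicate 2 or 3 of the serum-free siLAPTM4B arrays. In siControl cells it was 8, and between 7 and 8 with an array left out. FZD3 kept its call there with any array left out but lost it with the methods' t-test at either threshold (adjusted p = 0.084). For the difference of the knockdown effect it was 0, with 3 at an unadjusted p under 0.01 and 0 with any array left out.

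With the replicate number as a block, 2, 2, 10, 8 and 0 members were called in these comparisons in the order above, and the block changed no call of a named gene. The change of FZD5 with knockdown in 10% FBS, -0.02, ranged between -0.0356 and 0.0176 with an array left out, above 0 without replicate 2 of the siControl arrays and, at 0.0055, without replicate 3 of the siLAPTM4B arrays. The DKK3 difference between media, 0.17, became -0.0417 with the rows of the gene averaged, a setting that adds its dim second feature. The cause of the other shifts was not tested. Signal near that of the olfactory receptor features limits the values of WNT5A without serum and of the 7 dim members. It may also limit those of WNT16 without serum, which lay close above the dim line, and of PRICKLE2, which lay at it.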
